A study of Mus musculus with 8 samples.

Results

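The potassium channel genes of the array were followed in sorted heart cells of mouse embryos, leaving aside minK itself (Kcne1), Kcne2, Kcne3, Kcne4, Kcnq1 and Kcnh2. Members were all non-control probes whose gene name in the scanner files begins with Kcn, followed by letters and a digit. This gave 121 of 41174 probes, which stood for 81 of 27726 gene names: 80 channel subunits and 1 noncoding RNA, Kcnq1ot1, whose name has the same form. All 8 samples came from E10.5 embryonic hearts of the minKGFP transgenic line, a bacterial artificial chromosome (BAC) transgene in which green fluorescent protein (GFP) reports the activity of the minK regulatory region. Cells were released with pancreatin and collagenase and sorted into 4 GFP-high samples, labelled as conduction system cells, and 4 GFP-low samples, labelled as chamber myocardium. Both groups carried the transgene and were separated by brightness, the labels give no fluorescence limits of the gates, and no unsorted or transgene-free group was analysed here.

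Potassium channels carry the outward current that sets the resting potential and ends the action potential of a heart cell. Voltage-gated (Kv) alpha subunits form the channels that repolarise the membrane, and accessory subunits such as the Kcne proteins and the calcium-binding Kv channel interacting proteins change their gating or their number at the surface. Inward rectifiers (Kcnj) hold the resting potential, respond to acetylcholine and adenosine through G proteins, or sense the energy state of the cell, while two-pore-domain channels (Kcnk) provide a background leak. Small- and large-conductance channels (Kcnn, Kcnma1) open with calcium. Pacemaker and nodal cells are known for little background inward rectifier current and for acetylcholine-activated current.

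Each array read RNA amplified from 5 ng of total RNA, and levels are given as log2 of the processed signal minus the 75th percentile of that array. A spot counted as above background where the scanner software marked its signal as well above background. This held for 36.3% of the non-control spots of GFP-high replicate 3 and up to 50.7% on the other arrays. On 34.8% (GFP-low replicate 2) to 49.4% (GFP-high replicate 3) of an array's non-control spots, the software gave a substitute (surrogate) value. Both probes of Kcne1 were higher on all GFP-high than on all GFP-low arrays (log2 differences 1.29 and 2.83), which checks the sort only, since minK drives the reporter. All 9 cardiomyocyte markers checked, such as Tnnt2 and Myh7, were well above background on all 8 arrays. Among 11 neural crest and neuron markers 5, including Stmn2 and Snap25, were above background on no array, while Tubb3 and Foxd3 were on all 8 and Gap43 on 7. Among 8 endothelial and endocardial markers Pecam1 and Tek were on none, while Nfatc1 was on all 8 and Cdh5 and Kdr on 5 each. Npr3 was on 3 GFP-low arrays and no GFP-high array, and Tie1 and Emcn were on 1 GFP-low array each. The 4 smooth muscle markers were above background on all 8 arrays, and their summed level ran from 7.63 to 8.39 in GFP-high and from 6.90 to 8.28 in GFP-low. The summed level of 5 leukocyte markers ran from 3.43 to 3.93 in GFP-high and from 1.83 to 2.47 in GFP-low. This sum is mostly Lyz2, which alone ran from 3.35 to 3.81 and from 1.75 to 2.32, a difference of 1.46. Cd68 had means of -0.63 in GFP-high and -1.57 in GFP-low with overlapping groups, and Ptprc, Csf1r and Cd14 were above background on no array. The summed level of 7 cushion mesenchyme and fibroblast markers ran from 1.09 to 2.40 in GFP-high and from 1.48 to 3.53 in GFP-low. Their 4 compared genes had a median difference of -0.83. For 5 epicardial markers the sums were 1.82 to 2.40 and 1.41 to 1.94. They are mostly Tbx18, which alone ran from 1.57 to 2.17 in GFP-high and from 1.20 to 1.57 in GFP-low. Wt1, Tcf21 and Aldh1a2 were above background on 5, 4 and 4 arrays, and Upk3b on none. For 6 erythroid markers, 3 of them above background on all 8 arrays, the sums were 4.33 to 7.22 and 3.36 to 7.06. The part of these other cell types in the differences below was not tested.

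Most potassium channel genes lay near or below the detection limit in these hearts. For 32 members the brightest probe exceeded background on 4 or more arrays, and these members entered the comparison. The share of members that did so was 39.5%, against 46.4% of all gene names. Only 12 members (14.8%) were above background on all 8 arrays, against 32.5% of all gene names, and 25 (30.9%) were on none, against 35.9%. Detection varied with the array: 40, 44, 17 and 30 of the 121 probes were above background on GFP-high replicates 1 to 4, and 23, 40, 34 and 31 on GFP-low replicates 1 to 4. The 2 lowest counts, 17 and 23, were on 1 array of each group.

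The 12 members measured on every array by their brightest probe included the Kv alpha subunits Kcna5, Kcna6, Kcnb2 and Kcnc4. They also included the modifier subunit Kcng2, the accessory genes Kcne1l and Kcnip3, the inward rectifiers Kcnj9 and Kcnj12, the calcium-activated channel gene Kcnn1 and the large-conductance accessory gene Kcnmb2. The Kcnh, Kcnq and Kcnk classes had no member above background on all 8 arrays. Several genes known from adult heart were not measured well enough to be compared. Kcnj2, which encodes the main inward rectifier of ventricular muscle, was above background on 1 array, a GFP-low one. Kcnd3, of the transient outward current, was on 1 array of each group, and its partner Kcnip2 was on 1 GFP-high array. Kcna2, a Kv1 subunit, was on 1 GFP-low array. Kcna4, Kcnc1, Kcnk1, Kcnk6, Kcnn3, Kcnma1 and Kcnab1 were on none, and Kcnk2, Kcnn2 and Kcnj4 were on 1, 2 and 2 arrays. A signal below background gives only an upper bound on the level, so these genes cannot be called absent. Of the members above background anywhere, 10 were so on GFP-high arrays only and 7 on GFP-low arrays only. All of these were above background on a single array, except Kcnj4 with 2. The same share over all gene names was not computed, so these counts do not mark a gene as particular to a group.

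**Figure D1:**
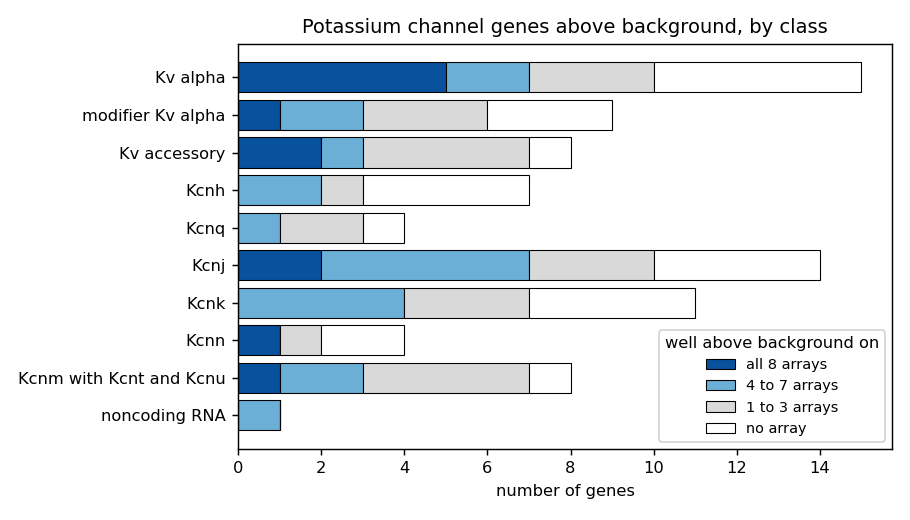
Number of potassium channel genes in each class (vertical axis) by how many of the 8 arrays read their brightest probe well above background (horizontal axis, number of genes; dark blue all 8, light blue 4 to 7, grey 1 to 3, white none). Kv alpha subunits have 5 of 15 genes on all 8 arrays, while the Kcnk class has none of 11.

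The comparison of GFP-high with GFP-low asks which channel genes differ between cells labelled as conduction system and those labelled as chamber myocardium. The genes with the largest differences were Kcne1l and Kcnk5, higher in GFP-high, and Kcnj3, Kcnj8 and Kcnk3, lower in GFP-high. Each difference is GFP-high minus GFP-low on the log2 scale, with its standard error (SE) and p-values from limma, adjusted by Benjamini-Hochberg over all 12876 tested genes. The labels call the replicates biological but name no embryos or litters, so the p-values measure the spread between these samples. No potassium channel gene passed an adjusted p of 0.05, where 0.14% of all tested genes did, 0.0699% higher and 0.0699% lower; the smallest limma adjusted p was 0.157, for Kcne1l. At an unadjusted p under 0.05, 4 of the 32 compared members were higher in GFP-high (12.5%, against 7.91% of all tested genes) and 2 were lower (6.25%, against 6.38%). The counts were 2 higher and 2 lower with slide as a block (8.19% and 7.07% of all tested genes). With the percentile taken over probes above background on all arrays they were 2 higher and 3 lower (5.71% and 7.93%). Of the 6 members first counted, the higher ones included Kcne1l, Kcnk5 and Kcnj5, and the lower ones were Kcnk3 and Kcnj8. The arrays of the groups did not overlap for 2 higher members (6.25%, against 5.86%) and 2 lower members (6.25%, against 3.08%). Without GFP-high replicate 3, in a comparison of fewer arrays, the groups of 8 members did not overlap (25.0%, against 22.0% of all tested genes). The median difference of the 32 members was 0.32, and 22 were positive (68.8%), beside a median of 0.16 and 62.1% positive over all tested genes. Each of the 32 was above background on at least 1 array of each group. For 3 of them it was fewer than 2 arrays in a group, where the filter itself favours a difference. These counts describe the 32 and not the 81.

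**Figure D2:**
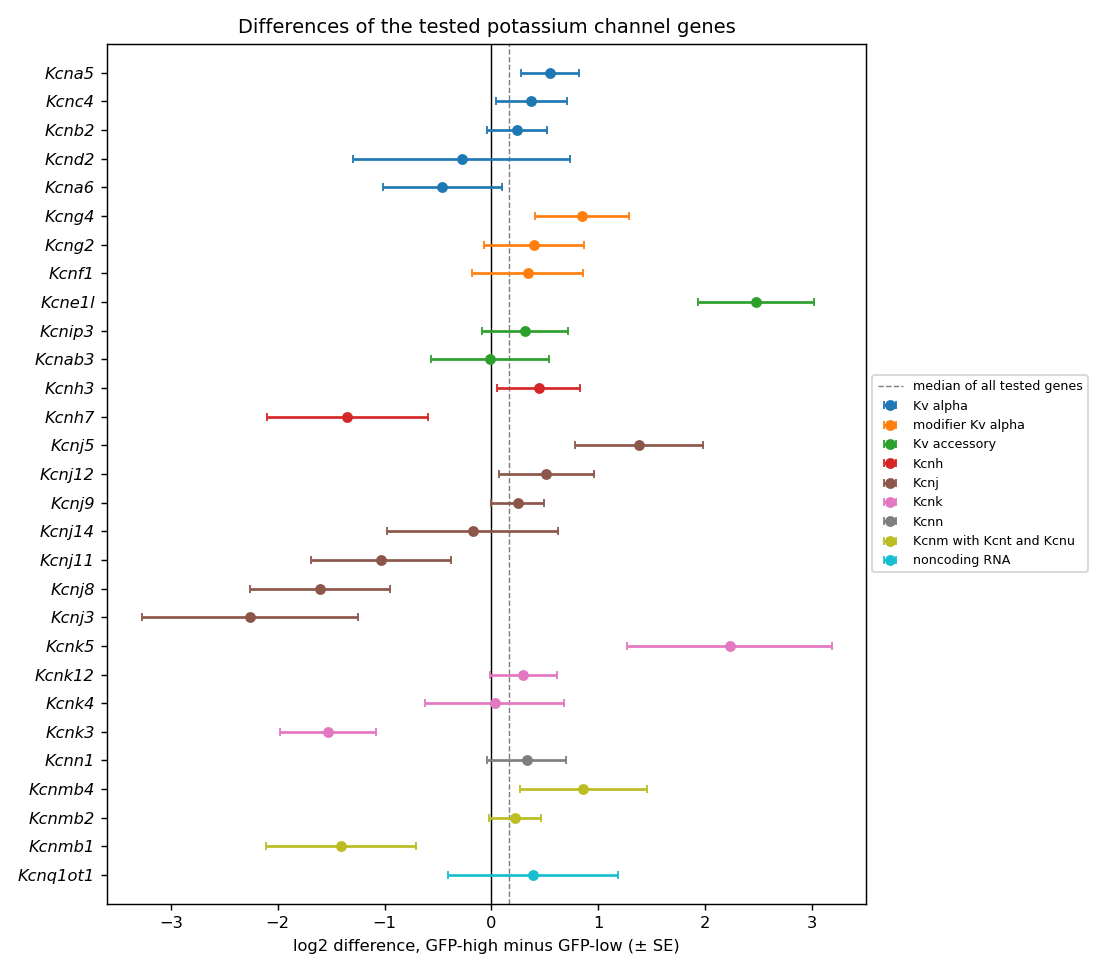
Log2 difference of GFP-high minus GFP-low (horizontal axis) with the standard error of the limma fit, for 29 compared members (vertical axis), coloured and ordered by class. Kcne1l at 2.48 and Kcnk5 at 2.23 lie farthest to the right and Kcnj3 at -2.26 farthest to the left; the dashed line marks the median of all tested genes, 0.16.

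The members on which the comparison turns were each read by a 60-base probe. The first 30 bases of each are given 5′ to 3′ as in the scanner files, to show which stretch was measured.
Kcne1l: cccaaatgcatctcttatattggttcagtt
Kcnk5: tacagatggctggaagtacagcatccaagg
Kcnj5: ctcaactggaacaggaagagttcgaagttg
Kcnk3: ctgggaaatccttaggtggaaggaatctgg
Kcnj8: actgtgtcctgatgactgagagacaatccg
Kcnj3: ggaagctgcatagatcatttagtccaacac
These probes had a G+C content from 35.0% to 53.3%, beside a median of 43.3% over all member probes. At the best ungapped offset, no more than 27 of their 60 bases matched a probe of another member gene. Probes were compared with probes only, so whether a probe also reads the transcript of a related channel was not tested.

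Among accessory subunits, Kcne1l had the largest difference of all compared members. It is also known as Kcne5 and encodes a small membrane protein of the minK family, known to reduce the current of Kcnq1 channels (probe at mm9 chromosome X, 138739364 to 138739423; the probe positions that follow are in mm9 too). It read 0.99, 0.94, 1.50 and 1.54 in GFP-high replicates 1 to 4 and -1.99, -1.26, 0.43 and -2.11 in GFP-low replicates 1 to 4. Every GFP-high array lay above every GFP-low array, and GFP-low replicate 3 came nearest. The means were 1.24 ± 0.32 and -1.23 ± 1.17 (SD, n = 4 each), a difference of 2.48 ± 0.55 (SE, 5.56-fold, limma adjusted p = 0.157). The difference was 2.59 within slide 1 and 2.36 within slide 2, and 1.53 with normexp background correction. That correction adds an offset of 50, which raises dim signals and so can shrink differences of dim genes, here and below. Because each array reads a bulk sample, a higher share of cells with a transcript and more transcript per cell cannot be told apart, here or for the genes that follow.

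The remaining accessory genes differed less. Kcnip3, a calcium-binding Kv channel interacting protein that is also a transcriptional regulator, had 0.31 ± 0.40 (SE). Its brightest probe read 1.67, 0.50, 1.83 and 1.05 in GFP-high and 0.72, 1.78, 0.83 and 0.47 in GFP-low, so that the groups overlapped widely. The other measured probe gave 1.36, but was above background on only 1 GFP-low array. Kcnab3, a cytoplasmic Kv beta subunit, had -0.014 ± 0.55, and its sign differed between slide 1 (0.99) and slide 2 (-1.02).

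Of the 15 Kv alpha genes, 7 were compared and 5 of them had positive differences. Kcna5 encodes Kv1.5, the ultrarapid delayed rectifier of atrial cells (chromosome 6, 126482573 to 126482632). It read 2.80, 2.45, 2.40 and 3.07 in GFP-high and 1.86, 2.13, 1.96 and 2.59 in GFP-low. GFP-low replicate 4 lay inside the GFP-high range and the other GFP-low arrays below it. The difference was 0.55 ± 0.27 (SE, limma adjusted p = 0.388). Of the other Kv alpha genes, Kcnb2 had 0.24 ± 0.28, Kcnc4 0.38 ± 0.33 and Kcna6 -0.46 ± 0.56, with limma adjusted p from 0.603 to 0.712. Kcnd2, which encodes the transient outward subunit Kv4.2, was above background on 2 arrays of each group, with a difference of -0.28 ± 1.01 that was -1.92 within slide 1 and 1.37 within slide 2.

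The modifier subunits, which assemble with Kcnb subunits and do not form channels alone, had 3 compared members, all with positive values. Kcng4 read -2.29, -2.30, -3.40 and -2.22 in GFP-high and -4.35, -2.74, -3.64 and -2.89 in GFP-low. GFP-high replicate 3, below the other 3, lay inside the GFP-low range, and only 1 GFP-low array was above background. The difference was 0.85 ± 0.44 (SE, limma adjusted p = 0.404), and was 0.22 with normexp background correction, 0.041 when quantile normalization was added and 0.54 without GFP-low replicate 1. Kcng2 had 0.40 ± 0.47, which was 0.022 without GFP-low replicate 3, 0.69 without GFP-high replicate 3 and 0.65 without GFP-low replicate 4, and Kcnf1 0.34 ± 0.52.

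In the Kcnh class, relatives of the rapid delayed rectifier gene, 2 of 7 genes were compared. Kcnh7 read -5.02, -1.52, -2.83 and -3.49 in GFP-high and -1.08, -2.83, -1.08 and -2.49 in GFP-low. It was above background on all GFP-low arrays but on 1 GFP-high array, and GFP-high replicate 2 lay inside the GFP-low range. The difference was -1.35 ± 0.75 (SE, limma adjusted p = 0.430). It was -0.046 with normexp background correction, -0.28 with a common floor under dim signals and -0.74 without GFP-high replicate 1. Kcnh3 had 0.44 ± 0.39, with 0.87 within slide 1 and 0.012 within slide 2.

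**Figure D3:**
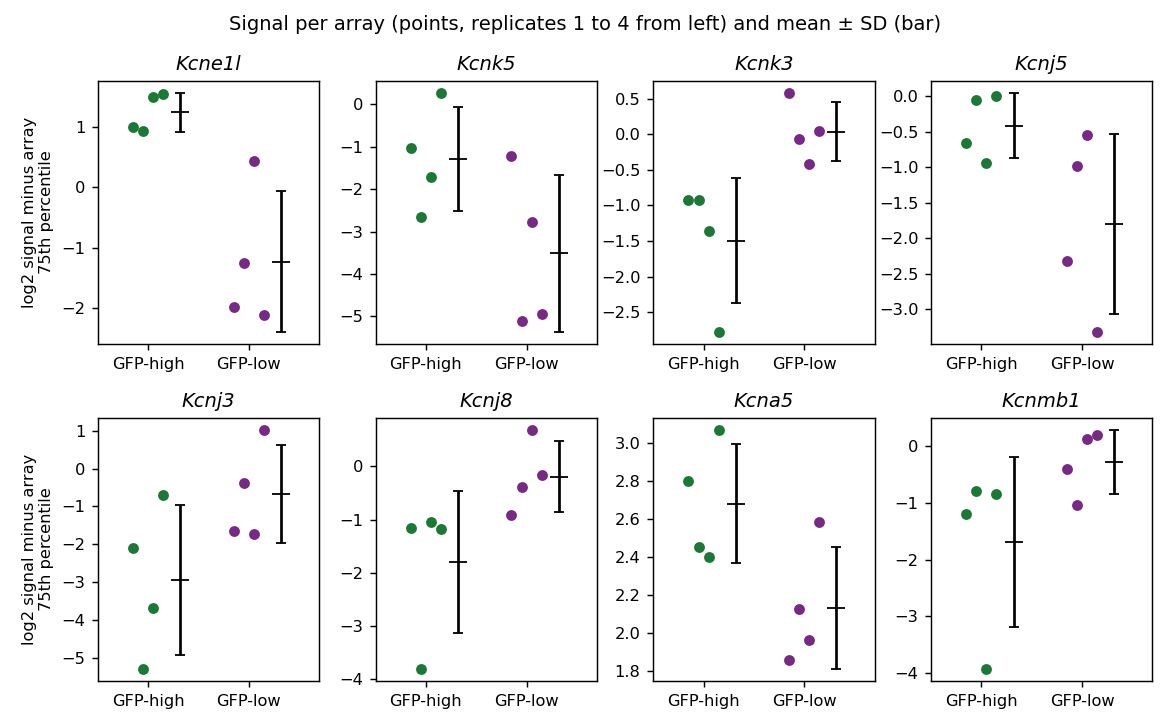
Log2 signal minus the array's 75th percentile (vertical axis, a separate scale in each panel) for 8 members, with 1 point per array for GFP-high (green) and GFP-low (purple) and the mean ± SD of the 4 arrays beside them. The points do not overlap between the groups for Kcne1l, Kcnk3 and Kcnj8, and overlap for Kcnk5, Kcnj5, Kcnj3, Kcna5 and Kcnmb1.

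The inward rectifiers held differences of both signs, 3 positive and 4 negative among 7 compared members of 14. Kcnj3 and Kcnj5 encode GIRK1 and GIRK4, the subunits that together form the atrial and nodal acetylcholine-activated channel. Kcnj5 (chromosome 9, 32129669 to 32129728) read -0.66, -0.054, -0.94 and -0.0020 in GFP-high and -2.32, -0.98, -0.55 and -3.33 in GFP-low. All GFP-high arrays were above background, as were 2 GFP-low arrays, and GFP-low replicate 3 lay inside the GFP-high range. The difference was 1.38 ± 0.60 (SE, 2.60-fold, limma adjusted p = 0.348), with 1.29 within slide 1 and 1.47 within slide 2. Without GFP-low replicate 4 it was 0.87.

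Its partner Kcnj3 (chromosome 2, 55449735 to 55449794) had the opposite sign. It read -2.10, -5.28, -3.68 and -0.70 in GFP-high and -1.63, -0.37, -1.73 and 1.02 in GFP-low. All GFP-low arrays and 2 GFP-high arrays were above background, and GFP-high replicate 4 lay inside the GFP-low range. The difference was -2.26 ± 1.01 (SE, limma adjusted p = 0.352), with -2.69 and -1.83 within the slides and -1.48 without GFP-high replicate 2. Its second probe, above background on no array, gave -0.82. With normexp background correction the difference was -0.66 for Kcnj3 and 0.70 for Kcnj5. Kcnj9, which encodes another GIRK subunit, had 0.24 ± 0.25 by its brightest probe, which was above background on all arrays. The second Kcnj9 probe, above background on no array, gave 0.36.

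Kcnj8 and Kcnj11 encode Kir6.1 and Kir6.2, the pores of ATP-sensitive channels. Kcnj8 (chromosome 6, 142514004 to 142514063) read -1.16, -3.80, -1.05 and -1.18 in GFP-high and -0.91, -0.39, 0.69 and -0.16 in GFP-low. The groups did not overlap, and GFP-high replicate 2 stood far below the other GFP-high arrays. Kcnj8 was above background on 3 GFP-high arrays and 4 GFP-low arrays. The difference was -1.60 ± 0.66 (SE, 3.04-fold lower in GFP-high, limma adjusted p = 0.328), with -1.83 and -1.38 within the slides, and was -0.94 without GFP-high replicate 2 and -0.66 with normexp background correction. Kir6.1 is also known in vessel walls. The smooth muscle sums are given above. The summed level of the 8 endothelial and endocardial markers ran from 0.17 to 2.26 in GFP-high and from 0.62 to 2.45 in GFP-low. In bulk samples neither sum shows which cells carried the transcripts. The part of vessel wall cells in the Kcnj8 difference was not tested. Its second probe gave 0.86, but was above background on 1 array of each group. Kcnj11 had -1.03 ± 0.66 (limma adjusted p = 0.486), with -0.14 within slide 1 and -1.93 within slide 2, -0.31 with normexp background correction and -0.61 without GFP-high replicate 4. Kcnj12, a classical inward rectifier like Kcnj2, had 0.51 ± 0.44, and Kcnj14 had -0.17 ± 0.80.

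The promoters of Kcne1l, Kcnj5, Kcnj3 and Kcnj8 are shown because these members differed most among the accessory and inward rectifier genes. Each run is the 250 bases before the gene's start on the gene's own strand (RefSeq, GRCm38.p6), at chrX:142306199-142306448, chr9:32344345-32344594, chr2:55435720-55435969 and chr6:142571615-142571864 in that order; Kcnj3 lies on the plus strand and the others on the minus strand. The table of promoters held 60 of the 81 members.
Kcne1l: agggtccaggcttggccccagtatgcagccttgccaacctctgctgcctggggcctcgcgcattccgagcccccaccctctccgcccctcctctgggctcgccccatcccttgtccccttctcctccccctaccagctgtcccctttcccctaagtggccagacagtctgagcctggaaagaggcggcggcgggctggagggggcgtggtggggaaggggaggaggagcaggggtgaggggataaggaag
Kcnj5: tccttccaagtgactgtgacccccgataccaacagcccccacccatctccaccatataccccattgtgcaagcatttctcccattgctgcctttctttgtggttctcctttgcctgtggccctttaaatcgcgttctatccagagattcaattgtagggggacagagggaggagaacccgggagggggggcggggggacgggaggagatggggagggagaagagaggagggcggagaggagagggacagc
Kcnj3: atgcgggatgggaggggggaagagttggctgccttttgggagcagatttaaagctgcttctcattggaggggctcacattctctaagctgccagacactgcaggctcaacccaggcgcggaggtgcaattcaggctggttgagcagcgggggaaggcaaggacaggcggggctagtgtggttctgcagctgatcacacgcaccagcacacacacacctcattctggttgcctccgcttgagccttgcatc
Kcnj8: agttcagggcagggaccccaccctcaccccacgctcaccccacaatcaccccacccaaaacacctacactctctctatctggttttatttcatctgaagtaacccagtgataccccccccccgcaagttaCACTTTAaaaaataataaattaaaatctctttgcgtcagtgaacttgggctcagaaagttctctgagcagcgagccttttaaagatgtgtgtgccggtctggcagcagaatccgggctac
They were searched on both strands for 3 motifs. The T-box half-site was spelled GGTGTGA. The motif of GATA factors was spelled AGATAA. The Nkx2-5 motif was spelled TNAAGTG. Capitals mark the single match, an Nkx2-5 site 120 bases before the start of Kcnj8. Among 32841 promoters of the same length, 10.1% held an Nkx2-5 match, 9.99% a GATA match and 3.33% a T-box match. A match is a run of letters and does not show that a factor binds. The Kcne1l promoter had the highest G+C content of the 4, at 68.0%, and the Kcnj8 promoter the lowest, at 49.2%, beside a median of 52.4% over all promoters.

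Among background leak channels, 4 of 11 Kcnk genes were compared. Kcnk3 encodes TASK-1, an acid-sensitive channel known in atrium and conduction system (chromosome 5, 30927090 to 30927149). It read -0.92, -0.92, -1.36 and -2.78 in GFP-high and 0.58, -0.071, -0.42 and 0.042 in GFP-low. Every GFP-low array lay above every GFP-high array. The difference was -1.53 ± 0.45 (SE, 2.88-fold lower in GFP-high, limma adjusted p = 0.235), with -1.18 within slide 1 and -1.88 within slide 2. With normexp background correction it was -0.78. Another Kcnk3 probe, which exceeded background on 1 array of GFP-high and 3 of GFP-low, gave -2.49.

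Kcnk5 encodes TASK-2, an alkaline-activated leak channel (chromosome 14, 20961425 to 20961484), and had the opposite sign. It read -1.03, -2.66, -1.72 and 0.27 in GFP-high and -1.22, -5.12, -2.78 and -4.93 in GFP-low. Only 1 GFP-low array was above background, so the GFP-low mean rests on dim signals, and GFP-low replicate 1 lay inside the GFP-high range. The difference was 2.23 ± 0.96 (SE, limma adjusted p = 0.343), with 1.32 within slide 1 and 3.13 within slide 2, 0.87 with normexp background correction and 0.57 with a common floor under dim signals. Its second probe, above background on 2 GFP-high arrays, gave 1.25. Kcnk12 and Kcnk4 had 0.30 ± 0.31 and 0.03 ± 0.65.

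Calcium-activated channels had values of both signs. Kcnn1, which encodes the small-conductance channel SK1, read 0.24, 1.31, -0.38 and 0.27 in GFP-high and -0.036, 0.17, -0.34 and 0.32 in GFP-low. The groups overlapped, with a difference of 0.33 ± 0.37 (SE). Of the 4 beta subunits of the large-conductance channel 3 were compared, and Kcnmb3 was above background on 1 array. Kcnma1, which encodes the pore, was on none. Kcnmb1, also known from smooth muscle, read -1.19, -0.78, -3.93 and -0.84 in GFP-high and -0.40, -1.03, 0.13 and 0.21 in GFP-low, a difference of -1.41 ± 0.70 (limma adjusted p = 0.391). Kcnmb1 was above background on 3 GFP-high arrays and 4 GFP-low arrays. GFP-high replicate 3 lay far below the other arrays, near Kcnj1 on that array (-3.94), which was above background on no array. Without GFP-high replicate 3 the difference was -0.66. It was -0.27 within slide 1 and -2.55 within slide 2, and -0.58 with normexp background correction. Kcnmb4 had 0.86 ± 0.59, which was 0.39 with normexp background correction, and Kcnmb2 0.22 ± 0.24. The noncoding Kcnq1ot1, which lies antisense in the Kcnq1 locus, read -2.86, -1.77, -1.74 and -1.43 in GFP-high and -2.11, -0.79, -1.64 and -4.81 in GFP-low. The groups overlapped, with a difference of 0.39 ± 0.80, with -0.86 within slide 1 and 1.64 within slide 2. Of 6 Kcnq1ot1 probes, only this 1 was above background on at least 4 arrays.

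Within slide 1, which held replicates 1 and 2, and slide 2, which held replicates 3 and 4, 21 of the 32 members had the same sign in both, beside 66.6% of all tested genes. Kcne1l, Kcnk5, Kcnj5, Kcnk3, Kcnj8 and Kcnj3 were among those with equal signs. They were singled out for large differences over both slides together, which itself favours equal signs, so this is no separate check of them.

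**Figure D4:**
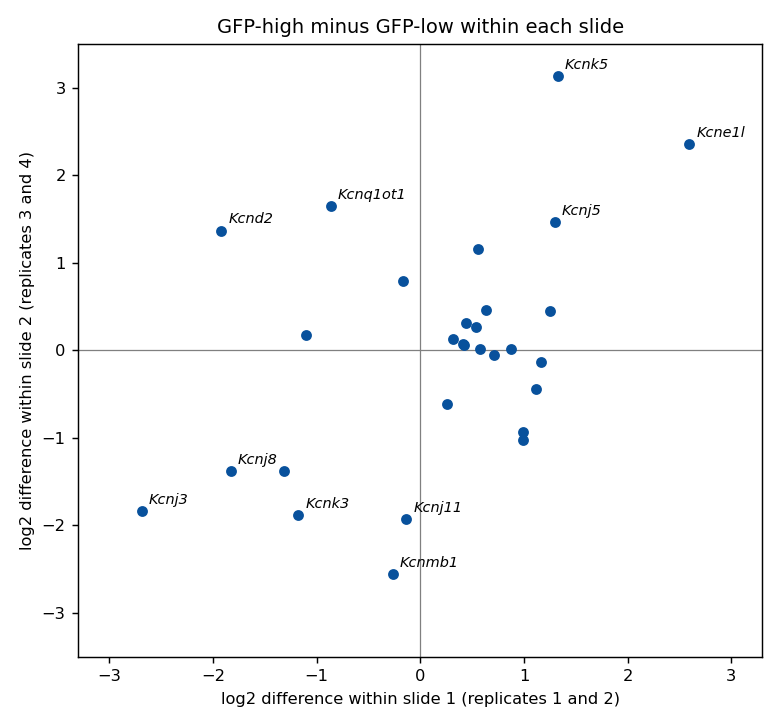
Log2 difference of GFP-high minus GFP-low within slide 1 (horizontal axis) and within slide 2 (vertical axis) for 29 compared members, 1 point each, from 2 arrays per group and slide. Kcne1l, Kcnk5 and Kcnj5 lie at the upper right and Kcnj3, Kcnj8 and Kcnk3 at the lower left, while Kcnd2 and Kcnq1ot1 change sign.

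Genes whose products bind, gate or anchor these channels were followed beside them. Of 30 listed partner genes 29 were on the array and 21 were compared. With limma, 0 passed an adjusted p of 0.05 in either direction, and at an unadjusted p under 0.05 2 were higher and 2 lower, beside 7.91% and 6.38% of all tested genes. The median difference was 0.27 and 14 were positive, beside 0.16 and 62.1% of all tested genes. Adora1, the A1 adenosine receptor, read 2.40, 1.81, 1.30 and 1.55 in GFP-high and 1.19, 1.13, -0.49 and -0.29 in GFP-low. The groups did not overlap, with a difference of 1.38 ± 0.47 (SE, limma adjusted p = 0.265). Gnb5, a G protein beta subunit, read 0.69, 2.53, 1.22 and 1.72 in GFP-high and 0.41, 0.092, 0.81 and -1.22 in GFP-low. GFP-low replicate 3 lay above GFP-high replicate 1, and the difference was 1.52 ± 0.53 (limma adjusted p = 0.274). Rgs6, whose product binds that of Gnb5 and speeds the closing of GIRK channels, had 1.51 ± 0.74 (limma adjusted p = 0.385). Chrm2, the muscarinic receptor, was above background on no array.

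Of the partner genes, 1 was higher and 2 were lower without overlap, beside 5.86% and 3.08% of all tested genes. Cav3, 1 of them and the muscle caveolin, read 2.28, 2.66, 1.79 and 2.48 in GFP-high and 2.77, 3.03, 3.24 and 3.17 in GFP-low. The difference was -0.75 ± 0.27 (SE, limma adjusted p = 0.282). Abcc9, the sulfonylurea receptor that partners Kcnj8 and Kcnj11, had -0.45 ± 0.30 and Abcc8 0.27 ± 0.70. Rgs6, Chrm2, Abcc8, Abcc9 and the genes that follow were chosen for mention after their values were seen. Dlg1 had the largest difference of the compared partner genes, -1.70 ± 0.79 (SE, limma adjusted p = 0.367). Among the other G protein and Rgs genes listed, Gnai2 had 0.48, Gnb1 0.35, Gnao1 0.10, Rgs4 -0.050 and Gng2 -0.37.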

How the data were processed

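Whole-mouse Agilent arrays of 4 GFP-high and 4 GFP-low samples were read as one-colour scans. The authors deposited scanner output with processed signal intensities, made with Agilent Feature Extraction 10.5.1.1 per the submitters' processing notes; probe positions are those of mm9 per the file headers. The deposited whole-series table held the same values. Of 45018 spots an array, 1639 control spots and those marked as outliers were left out; 0 spots were saturated. The log2 of the authors' processed intensity minus its 75th percentile on each array was computed, spots of a probe were averaged, and the probe with the highest mean over all arrays stood for its gene. Genes well above background on at least 4 of 8 arrays were fitted with limma 3.58.1 (lmFit and eBayes, R 4.3.3), without covariates. The number of arrays limits the precision. On simulated data of 12876 genes for this comparison, 7.0% of changes of log2 size 1, 46.4% of size 2, 74.6% of size 3 and 84.8% of size 4 were recovered. Recovered means a limma adjusted p under 0.05. The simulated noise was independent between genes and arrays, with no detection floor and no slide effect. The rates are for genes drawn from all those tested, and may not hold for dim members. Gene names were updated through RefSeq (GRCm38.p6) for 33098 of 41174 probes and otherwise kept as in the files; the members' names were the same in both.

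The members and lists were chosen with earlier results of these data known. Genes were named by rule: channel genes known in heart, members called or without overlap, the 2 smallest p in each class, and of the partner list those without overlap and the 2 smallest p; other genes are given as the rest of their class. A few genes that the rule names are not reported here, though they stay in the fits and counts over all members. Alternatives covered scaling, background correction, a floor, the filter on dim probes, probe choice, slide and replicate blocks, each slide alone, and each array left out.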

Additional observations from a re-analysis of the deposited data

Results flagged for a closer look

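In 4 of 38 groups of 4 arrays, 1 array stood apart from the other 3 by Dixon's test; chance marks about 1 in 20 groups. All were GFP-high arrays on which the gene was lowest. GFP-high replicate 3, which had the fewest member probes above background (17 of 121), was the one in 3 of them. Kcng2 read 0.27 there, where the other GFP-high arrays ran from 1.32 to 1.52. Kcng4 read -3.40, against -2.30 to -2.22. Kcnmb1 read -3.93, against -1.19 to -0.78. For Kcnj8 it was GFP-high replicate 2, at -3.80, against -1.18 to -1.05. Kcng4, Kcnmb1 and Kcnj8 were each above background on 3 of the 4 GFP-high arrays. Their low values may therefore be signals below background, which give only an upper bound.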

How the results depend on the processing

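Over 25 alternatives, 8 of which left out an array, 0 members and 0 partner genes passed an adjusted p of 0.05. The smallest member adjusted p ran from 0.0808 (common floor) to 0.697 (Kcnk5, within slide 2). At an unadjusted p under 0.05 there were 2 members, both higher, among genes above background on all 8 arrays, where 12 members were tested. Of all genes tested with that filter, 10.3% were higher and 6.64% lower. With an array left out there were 4 to 7 members, beside 6. Of all tested genes, 5.34% to 10.7% were then higher and 3.98% to 9.27% lower. Groups did not overlap for 2 members with that filter (16.7%, beside 9.96% of all tested genes). Within slide 1 it was 20 and within slide 2 it was 11 (62.5% and 34.4%, beside 52.4% and 31.4% of all tested genes), where 2 arrays face 2. With an array left out it was 4 to 8 members, beside 4. Their share was 12.5% to 25.0%, beside 10.53% to 22.0% of all tested genes. Over all tested genes 18 were called; the count was 0 with median scaling, 4 with the percentile over probes above background on all arrays, 9 with quantile normalization, 45 with a common floor, 3 without the filter, 11 with the filter at 8 arrays, 7 with each probe fitted, 11 with slide as a block, 0 within either slide, and 0 to 7 with an array left out. The cause of these shifts was not tested.

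Of 19 named members, 14 kept their sign throughout. Kcnd2 was 0.046 with normexp, 0.059 with the floor, 1.37 within slide 2 and between -0.89 and 0.29 with an array left out. Kcnq1ot1 was -0.18 with the floor, -0.86 within slide 1 and between -0.43 and 0.91 with an array left out. Within slide 1 Kcnip3 was -0.16; within slide 2 Kcnj12 was -0.13 and Kcnn1 -0.047. Kcng4 had no value with the floor. The median of all tested genes was 0.16 as reported and 0.051 with normexp and quantile normalization, and that of the members 0.32 and 0.087.

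The labels share replicate numbers, but deviations of same-numbered samples correlated by 0.11, 0.15, 0.30 and 0.065, so 1 of 4 pairs was under 0.1 and the numbers were not taken as pairs. Every sample correlated best with its own number except GFP-low replicate 4, which did so with GFP-high replicate 1 (0.078); this is a hint from the data, and the labels do not say what a number marks. With the replicate block 0 of all tested genes (smallest adjusted p 0.134) and 0 members passed, while at an unadjusted p under 0.05 all tested genes went from 1840 to 2381 and members from 6 to 7. Signal over background limits the 49 members not compared.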
